A study of Homo sapiens with 2 samples.

Results

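The genes described here encode the proteasome, its activators, its inhibitor and the factors that assemble it. They were taken from the deposited table by name, as protein-coding genes whose symbol starts with PSMA, PSMB, PSMC, PSMD, PSME, PSMF or PSMG followed by a digit. The rule gave 49 genes of the 58735 in the table, and of 19951 protein-coding genes. One of the 49, PSMC3IP, carries such a name but encodes a cofactor of meiotic recombination and is no part of the proteasome, and it is described on its own below. It stands in the counts over all 49 genes.

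The proteasome is the protease that degrades proteins marked with ubiquitin. Its core particle is a barrel of stacked rings. The outer alpha rings form the gate and the inner beta rings hold the catalytic sites. The regulatory particle caps the barrel, and within it the base unfolds the substrate with a ring of ATPases while the lid removes the ubiquitin chain. Proteins that fail to fold in the ER are moved to the cytosol and degraded by this machine, and its subunit genes are known to be transcribed together under NFE2L1 (also called NRF1) when the proteasome is impaired.

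The cells were SF-539, an established human line derived from a glioblastoma (GBM), and their RNA was sequenced after stable infection with lentivirus. The shControl cells carried the pGIPZ-CTRL vector and the shFKBP9 cells an shRNA against FKBP9, an ER-resident prolyl isomerase of the FK506-binding family. Per the labels, both were stable clones selected with puromycin and grown in DMEM with serum, so infection, selection and medium are shared, and the sources used here do not say which of the FKBP9 shRNAs the sequenced cells carried. There was 1 library per condition, no difference between the conditions has a replicate check, and no test between them was possible.

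Values are given as FPKM, fragments per kilobase of gene length scaled to library size, with the number of fragments behind them, as recovered from the FPKM. The shControl library held 18116873 fragments on genes and the shFKBP9 library 17158514, of which the 49 genes took 125913 and 117986. Each log2 ratio divides the shFKBP9 value by the shControl value after 0.1 was added to either FPKM. The 95% intervals come from the fragments alone by the exact Clopper-Pearson method and hold counting error but no biological spread. FKBP9 itself stood at 49.8 FPKM in the control library and 4.68 in the knockdown, a log2 ratio of -3.38 (95% interval -3.56 to -3.27). The labels describe brain-derived epithelial glioma cells. Of 6 neural and glial markers only NES reached 1 FPKM (2.36 and 2.17), and of 5 epithelial markers only KRT8 did (1.28 and 1.09), while 4 mesenchymal markers (VIM, CD44, FN1 and COL1A1) summed to 1468 and 1541 FPKM. Under 1 FPKM, the glial marker GFAP was counted with 43 and 29 fragments, OLIG2 with 48 and 41, SOX2 with 4 and 7, PTPRZ1 with 4 and 3 and S100B with 0 and 1. Of the epithelial markers, EPCAM had 11 and 14 fragments, KRT18 9 and 5, KRT19 4 and 2 and CDH1 0 and 1. The 4 blood markers summed to 0.465 and 0.741 FPKM, from CD14 with 13 and 24 fragments and HBB with 2 and 0, while PTPRC and CD3E were at 0 fragments in both libraries. The part of the mesenchymal markers in the results below was not tested. In bulk RNA, fewer cells expressing a gene and less RNA per cell cannot be told apart.

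Several of the results concern genes that interferon is known to induce, which are the immunoproteasome subunits and the activator PA28. Their promoters, in RefSeq windows of 250 bases before to 50 bases after a transcription start, were searched on both strands for the core of the interferon-stimulated response element, which is GAAA, any 2 bases, and GAAA again. For 43 of the 49 genes there were 53 windows. The core was present in 7 of these 53 windows (13.2%), 1 for each of 7 genes, and in 3.57% of all 35116 promoter windows. The window of PSMB9 did not hold these letters. In PSMB8, PSMB10, PSME1, PSME2 and PSMG4 the matching bases were the same, GAAAGCGAAA or its reverse complement, which 35 of all windows (0.0997%) held. That spelling was looked up after the matches were seen. A match is a stretch of letters and not a site shown to be bound. The windows of PSMB8 (chr6:32843998-32844297, minus strand), PSMB10 (chr16:67936801-67937100, minus strand), PSME1 (chr14:24135944-24136243, plus strand) and PSME2 (chr14:24146561-24146860, minus strand), all of GRCh38.p14 and read 5′ to 3′, are shown because these 4 genes share the match and 2 of them, PSME1 and PSME2, differed in opposite directions between the libraries. Capitals mark the core.
PSMB8: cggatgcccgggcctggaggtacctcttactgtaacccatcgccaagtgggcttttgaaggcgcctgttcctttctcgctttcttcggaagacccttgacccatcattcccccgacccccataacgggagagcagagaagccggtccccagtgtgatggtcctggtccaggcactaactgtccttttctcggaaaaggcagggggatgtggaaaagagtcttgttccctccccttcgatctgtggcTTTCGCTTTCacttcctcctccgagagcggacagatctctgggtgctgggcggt
PSMB10: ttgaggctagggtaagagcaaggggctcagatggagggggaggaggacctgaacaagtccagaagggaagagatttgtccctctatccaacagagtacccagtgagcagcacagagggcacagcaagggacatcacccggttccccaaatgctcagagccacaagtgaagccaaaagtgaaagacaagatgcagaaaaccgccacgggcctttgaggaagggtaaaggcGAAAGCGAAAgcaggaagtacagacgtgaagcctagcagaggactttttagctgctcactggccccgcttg
PSME1: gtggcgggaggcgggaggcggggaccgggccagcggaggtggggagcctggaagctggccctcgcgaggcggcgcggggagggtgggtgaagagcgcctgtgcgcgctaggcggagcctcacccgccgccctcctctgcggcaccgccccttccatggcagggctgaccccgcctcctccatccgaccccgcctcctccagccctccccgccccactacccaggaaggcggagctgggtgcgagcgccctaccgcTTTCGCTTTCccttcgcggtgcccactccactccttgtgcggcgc
PSME2: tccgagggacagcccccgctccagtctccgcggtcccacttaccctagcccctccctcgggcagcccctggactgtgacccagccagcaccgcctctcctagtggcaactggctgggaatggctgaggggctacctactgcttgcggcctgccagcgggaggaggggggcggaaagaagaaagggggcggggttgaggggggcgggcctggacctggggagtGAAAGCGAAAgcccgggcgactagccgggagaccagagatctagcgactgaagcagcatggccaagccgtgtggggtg

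The antioxidant response element core, TGACNNNGC, is the sequence through which NFE2L1 is known to act on subunit genes. On either strand it was found in 15 of the 53 windows of proteasome genes (28.3%), 1 for each of 15 genes, and in 13.3% of all windows. The windows of the lid genes PSMD3 (chr17:39980557-39980856, plus strand) and PSMD12 (chr17:67366528-67366827, minus strand) are shown because both hold it and their ratios lay on opposite sides of 0. Capitals mark the core, which PSMD3 holds on each strand.
PSMD3: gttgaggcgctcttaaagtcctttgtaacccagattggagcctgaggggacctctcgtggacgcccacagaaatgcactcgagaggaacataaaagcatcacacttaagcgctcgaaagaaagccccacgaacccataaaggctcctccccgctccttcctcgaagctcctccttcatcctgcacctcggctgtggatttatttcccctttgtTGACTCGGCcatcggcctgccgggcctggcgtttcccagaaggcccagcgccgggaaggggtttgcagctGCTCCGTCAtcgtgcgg
PSMD12: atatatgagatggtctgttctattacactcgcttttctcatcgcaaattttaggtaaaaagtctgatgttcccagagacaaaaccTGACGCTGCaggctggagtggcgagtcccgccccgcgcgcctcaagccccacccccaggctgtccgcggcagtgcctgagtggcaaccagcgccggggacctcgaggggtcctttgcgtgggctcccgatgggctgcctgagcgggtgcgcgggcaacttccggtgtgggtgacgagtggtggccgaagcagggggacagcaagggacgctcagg

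The genes of the proteasome were nearly at the same level in both libraries. Of the 49 genes, 46 reached 1 FPKM in at least 1 library, and all 46 had a log2 ratio between -0.28 and 0.24. Without PSMC3IP, which holds the upper end, the 45 others lay between -0.28 and 0.21 with a median of -0.02. None was more than 2-fold higher, against 0.213% of the 10346 protein-coding genes at that level, and none was more than 2-fold lower, against 0.193%. The median log2 ratio of the 46 was -0.01, and that of the 10346 genes was -0.02. The median size of the log2 ratio, without its sign, was 0.05 for the 46 genes and 0.13 for all protein-coding genes at 1 FPKM. The summed FPKM of the 49 was 2290 in shControl and 2270 in shFKBP9.

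The counting interval lay above 0 for 6 of the 46 genes, whereas 19.7% of protein-coding genes at 1 FPKM were called in this way. It lay below 0 for 10 genes, against 24% of protein-coding genes. These counts are near or under the background and are no result about the proteasome genes. Deeply counted genes have narrower intervals, so the comparison was repeated among genes whose fragments summed to 1000 or more over both libraries. There, 6 of 42 proteasome genes (14.3%) lay above 0 against 23.8% of 6297 protein-coding genes, and 10 (23.8%) below 0 against 29.7%. A log2 ratio within 0.1 of 0 was found for 28 of the 42 (66.7%) and for 43.6% of the 6297. The 42 had a median of 5684 fragments and the 6297 a median of 2483, so the proteasome genes were the more precisely counted. No test was made of this difference.

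The alpha ring is built from PSMA1 to PSMA7. None of its genes had an interval away from 0, and the 6 at 1 FPKM had a median log2 ratio of 0.01. PSMA7, the most abundant proteasome gene, had an FPKM of 256 in shControl and 260 after knockdown (log2 ratio 0.03, 95% interval -0.02 to 0.07). PSMA3 had 35.8 and 36.7, PSMA4 24.4 and 24.3, and PSMA5 30.7 and 29.7. None of the 3 differed between the libraries beyond counting error. PSMA1 had 8.47 and 9.03 FPKM, from 506 and 512 fragments.

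PSMA2 and PSMA6 had the lowest counted levels of the ring, although the assembled ring holds each alpha subunit in equal number. All fragments of a gene, divided by the length of its canonical transcript, gave 3.35 for PSMA2, 13.2 for PSMA6 and 23.4 for PSMA1, the next, in shControl. That division cannot show how fragments on exons shared with other genes were counted. PSMA6 had 2.08 FPKM in shControl and 1.98 in shFKBP9, from 245 and 221 fragments. PSMA2 had 0.900 and 0.884, from 87 and 81 fragments, and is the only one of PSMA1 to PSMA7 under 1 FPKM. Among the 14 constitutive core genes the highest level was 284 times the lowest in shControl, or 139 times per length of the canonical transcript. The exons of the canonical transcript in GENCODE release 44 were compared with those of other genes in the table. Those of PSMA2 were overlapped over 100% of their length by AC010132.3, a gene listed with 0 fragments in both libraries. Those of PSMA6 were overlapped over 81.4% by AL121594.1, with 2 and 2 fragments, and those of PSMA1 over 67.0% by AC018523.2, with 0 and 1. The other 11 core genes had 0% overlap, and their levels spanned 10.5-fold. How the counting treated fragments that lie on more than 1 gene is not given in the sources used here, and the part of the overlap in these levels was not tested. The ratio between libraries compares each gene with itself, and for these 3 genes it included 0 at wider intervals than in the rest of the ring.

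The constitutive beta ring is built from PSMB1 to PSMB7, of which PSMB5, PSMB6 and PSMB7 carry the catalytic sites. Its genes had levels from 47.3 to 161 FPKM in shControl and from 48.3 to 173 in shFKBP9, a range of 3.40-fold in shControl, or 5.85-fold per length of the canonical transcript. Their median log2 ratio was 0.00. The structural subunits PSMB1, PSMB2, PSMB3 and PSMB4 had log2 ratios from -0.03 to 0.03. PSMB5, which carries the chymotrypsin-like activity and is the main target of proteasome inhibitors, had 105 FPKM in both libraries (log2 ratio 0.00, 95% interval -0.07 to 0.07). The other catalytic genes differed slightly and in opposite directions. PSMB6, the caspase-like subunit, had 116 FPKM in shControl and 103 in shFKBP9, counted from 3034 and 2563 fragments (log2 ratio -0.17, 95% interval -0.24 to -0.09). PSMB7, the trypsin-like subunit, had 161 and 173, from 5200 and 5313 fragments (0.11, 0.05 to 0.16). The ratio of PSMB7 to PSMB6 within a library was 1.39 in shControl and 1.68 in shFKBP9, or 1.44 and 1.74 per length of the canonical transcripts. The difference of their log2 ratios was 0.27 (95% interval 0.18 to 0.37, counting error only). This pair, and those of PSME2 with PSME1 and of PSMD8 with PSMD3 below, were chosen after their values were seen.

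The immunoproteasome contains PSMB8, PSMB9 and PSMB10 in the place of PSMB5, PSMB6 and PSMB7. It is the usual form in blood cells and is induced by interferon gamma elsewhere, and it favours peptides that fit MHC class I. All 3 genes were expressed in SF-539 cells, at lower levels than the genes they replace. PSMB8 had 24.4 FPKM in shControl and 24.3 in shFKBP9, from 1324 and 1248 fragments, and PSMB10 had 9.54 and 9.18, from 320 and 292. Neither differed beyond counting error. The canonical exons of PSMB10 were overlapped over 56.1% by AC040162.1, with 34 and 36 fragments. PSMB9 (chromosome 6, 32844136 to 32859585) had 14.9 and 13.2, from 831 and 697 fragments (log2 ratio -0.18, 95% interval -0.32 to -0.03).

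A share within a library does not depend on how the libraries were scaled, but it does depend on the gene lengths. PSMB8 made up 18.9% (95% interval 17.9 to 19.9) of the FPKM of PSMB8 and PSMB5 in shControl and 18.8% (17.8 to 19.8) in shFKBP9. PSMB9 made up 11.4% (10.7 to 12.2) of its sum with PSMB6 in shControl and 11.4% (10.5 to 12.2) in shFKBP9, because both genes were lower by a like amount. PSMB10 made up 5.60% (5.02 to 6.23) of its sum with PSMB7 and 5.03% (4.48 to 5.63). The differences of the log2 ratios within the pairs were -0.01 (95% interval -0.14 to 0.12), -0.01 (-0.17 to 0.15) and -0.16 (-0.40 to 0.07). No shift in any pair was detectable at this depth. Summed over the pairs, the share was 11.4% (95% interval 10.9 to 11.8) in shControl and 10.9% (10.5 to 11.4) in shFKBP9, and the difference of the log2 ratios was -0.07 (-0.16 to 0.02), by a normal approximation of counting error. Per length of the canonical transcripts the shares in shControl were 26.8% for PSMB8, 18.2% for PSMB9 and 5.84% for PSMB10, and in shFKBP9 26.7%, 18.1% and 5.24%. These shares still use all fragments counted on a gene, also those on other exons. The thymus-specific PSMB11 and the testis-specific PSMA8 had 0 fragments in both libraries, which at 3 fragments allows up to 0.0785 FPKM for PSMB11 and 0.0875 for PSMA8 in shControl, and up to 0.0828 and 0.0923 in shFKBP9.

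In the base of the regulatory particle, PSMC1 to PSMC6 form the ATPase ring that unfolds the substrate and threads it into the core. They had a median log2 ratio of -0.02. PSMC3 was the most abundant, with 130 FPKM in shControl and 129 in shFKBP9. PSMC1, PSMC2, PSMC3 and PSMC5 had log2 ratios from -0.05 to -0.02, with intervals that included 0. PSMC4 had 65.7 and 58.3 FPKM, from 2838 and 2388 fragments (log2 ratio -0.17, 95% interval -0.25 to -0.09). PSMC6 had 9.78 and 10.7, from 1325 and 1376 fragments (0.13, 0.02 to 0.24). Levels across the ring spanned 13.3-fold in shControl with the gene lengths of the table and 5.68-fold with those of the canonical transcripts. The canonical exons of PSMC1 were overlapped over 83.2% by NRDE2, with 827 and 682 fragments (log2 ratio -0.19, 95% interval -0.35 to -0.05). Those of PSMC5 were overlapped over 13.7% by FTSJ3, with 1663 and 1390 (-0.18, -0.29 to -0.08). The part of the overlap in the ratios of PSMC1 and PSMC5 was not tested.

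PSMD1 and PSMD2 are the large scaffold subunits of the base and PSMD4 is a receptor for ubiquitin chains. PSMD2, which had the most fragments of the 49 genes, had 128 FPKM in shControl and 123 in shFKBP9, counted from 12667 and 11497 fragments (log2 ratio -0.06, 95% interval -0.10 to -0.03). With so many fragments, its interval lay away from 0 at a difference of 4.28%. PSMD1 had 39.6 and 41.4 FPKM and PSMD4 59.6 and 60.5, with intervals that included 0.

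The lid holds PSMD14, the enzyme that cuts the ubiquitin chain off the substrate, and scaffold subunits around it. Its 8 genes had a median log2 ratio of -0.03, with 3 intervals above 0 and 1 below, beside 19.7% and 24% of protein-coding genes. PSMD14 had 13.8 FPKM in shControl and 14.7 in shFKBP9, counted from 1923 and 1944 fragments (log2 ratio 0.09, 95% interval 0.00 to 0.18). This was the interval closest to 0 among those above it, and it included 0 when the values were rescaled to TPM. PSMD12 had 18.7 and 20.5, from 1821 and 1889 fragments (0.13, 0.04 to 0.22), and PSMD8 had 52.8 and 57.6, from 2967 and 3073 (0.13, 0.05 to 0.20). PSMD3 had 58.8 and 52.9, from 5282 and 4509 (-0.15, -0.21 to -0.09). The ratio of PSMD8 to PSMD3 was 0.898 in shControl and 1.09 in shFKBP9, or 0.794 and 0.964 per length of the canonical transcripts, so in shFKBP9 their order depends on the lengths used. The difference of their log2 ratios was 0.28 (95% interval 0.19 to 0.37). PSMD6, PSMD7, PSMD11 and PSMD13 had log2 ratios from -0.07 to -0.03, and their intervals included 0. The canonical exons of PSMD7 were overlapped over 51.6% by AC009120.2, with 70 and 52 fragments.

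The activators that can bind the barrel in place of the regulatory particle had, with the inhibitor, the largest median size of the log2 ratio of the 8 roles, 0.19 over 5 genes. It was 0.13 over all protein-coding genes at 1 FPKM, and 5 genes are too few to set the role apart. PSME1 and PSME2 encode the alpha and beta chains of PA28, which form 1 ring together, are both induced by interferon gamma and lie close to each other on chromosome 14. PSME1 (24136158 to 24138967) had 55.6 FPKM in shControl and 48.5 in shFKBP9, counted from 1792 and 1484 fragments (log2 ratio -0.19, 95% interval -0.30 to -0.10). PSME2 (24143362 to 24147570) had 42.5 and 49.0, from 2755 and 3015 fragments (0.21, 0.13 to 0.28). The ratio of PSME2 to PSME1 was 0.764 in shControl and 1.01 in shFKBP9, but 1.87 and 2.47 per length of the canonical transcripts, so which chain was the more abundant depends on the lengths used. The difference of their log2 ratios, in which the lengths cancel, was 0.40 (95% interval 0.28 to 0.53), the largest of the 3 pairs compared. The length in the table was 4.52 times that of the canonical transcript for PSME2 and 1.85 times for PSME1. The part of fragments outside the canonical exons in this difference was not tested. Both promoter windows printed above hold the same interferon core. Adding the fragments of the 2 pseudogenes of PSME2, 10 in shControl and 6 in shFKBP9, left its log2 ratio at 0.20.

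PSME3, the nuclear relative of PA28 that acts without ubiquitin, had 43.0 FPKM in shControl and 38.9 after knockdown (log2 ratio -0.14, 95% interval -0.21 to -0.08). PSME4, an activator known for its role on acetylated histones, had 8.45 and 8.49 (0.01, -0.10 to 0.11). PSMF1, which encodes the inhibitor PI31, had 12.4 and 10.8, from 1193 and 985 fragments (-0.20, -0.32 to -0.08). Of the 5 genes of this role 3 intervals lay below 0 and 1 above, beside 24% and 19.7% of protein-coding genes, too few genes to read anything from.

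PSMG1 to PSMG4 are chaperones that order the alpha ring, and PSMD5, PSMD9 and PSMD10 hold parts of the base until it is complete. The 7 assembly genes had a median log2 ratio of -0.01. PSMG1 had 21.2 FPKM in shControl and 20.1 in shFKBP9, PSMG2 18.5 and 18.4, and PSMG3 17.6 and 17.8. These 3 did not differ beyond counting error. PSMG4 had 3.13 and 2.55, from 590 and 456 fragments (log2 ratio -0.28, 95% interval -0.47 to -0.12), the lowest ratio of the 49 genes. Its length in the table was 13.3 times that of its canonical transcript, the largest such factor of the 49, so its level is low on the scale of the table. The length cancels in its ratio, but the part of fragments outside the canonical exons in that ratio was not tested. Of the chaperones of the base, PSMD5 had 15.0 and 13.2, from 1203 and 1002 fragments (-0.19, -0.31 to -0.06). PSMD9 had 1.64 and 1.64 and PSMD10 26.6 and 27.6, with intervals that included 0.

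PSMC3IP, which the name rule takes and which is not a proteasome gene, had 4.08 FPKM in shControl and 4.82 in shFKBP9, counted from 190 and 213 fragments (log2 ratio 0.24, 95% interval -0.05 to 0.53). It had the highest ratio of the 46 genes at 1 FPKM, and its interval included 0. Its canonical exons were overlapped over 57.2% by MLX, with 989 and 855 fragments (log2 ratio -0.13, 95% interval -0.27 to 0.00), and the part of this overlap was not tested.

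The promoter windows were searched for 4 motifs in all. The 15 genes with the antioxidant core, all at 1 FPKM, had log2 ratios from -0.19 to 0.21 with a median of -0.03, with 2 intervals above 0 and 5 below. The 25 genes at 1 FPKM whose window lacked it had a median of -0.02, with 3 above and 4 below. The 7 genes with the interferon core had log2 ratios from -0.28 to 0.21 and a median of -0.01, with 1 interval above 0 and 2 below. The 33 without it had a median of -0.03, with 4 above and 7 below. The core of the gamma-activated site, TTCNNNGAA, was present in 8 of the 53 windows (15.1%) and in 7.66% of all windows. Of its 6 genes at 1 FPKM, PSMC4, PSMD2, PSMD3 and PSME3 had intervals below 0, PSMB5 and PSMB8 had intervals that included it, and the median was -0.10. Of the 34 genes at 1 FPKM without this core, 5 lay above 0 and 5 below, with a median of -0.02. Among protein-coding genes, 24% lay below 0. The CCAAT box was present in 22 of the 53 windows (41.5%) and in 34.6% of all windows. Its 19 genes at 1 FPKM had a median of -0.02, with 2 above 0 and 3 below, and the 21 without it a median of -0.03, with 3 above and 6 below. A difference between genes with and without a motif was not tested.

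The name rule leaves out genes that work with the proteasome, and 41 of these were taken from a list chosen by role. None of the 40 at 1 FPKM was past 2-fold. Their intervals lay above 0 for 13 genes and below 0 for 7, beside the 19.7% and 24% of protein-coding genes given above. Among 11 further subunits and factors of the particle, 3 lay above 0 and 1 below, with a median log2 ratio of -0.03. SEM1, the smallest lid subunit, had 9.35 FPKM in shControl and 10.7 after knockdown (log2 ratio 0.19, 95% interval 0.11 to 0.28), and UCHL5, a deubiquitinase on the base, had 4.09 and 4.88 (0.25, 0.08 to 0.43). PAAF1, a chaperone of the base, had 2.07 and 1.69 (-0.28, -0.55 to -0.04). ADRM1, the ubiquitin receptor that anchors UCHL5, had 92.7 and 88.9, and POMP, which matures the core, had 60.3 and 61.6, both with intervals that included 0.

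NFE2L1, the factor that drives subunit genes when the proteasome is impaired, had 81.0 FPKM in shControl and 78.6 after knockdown (log2 ratio -0.04, 95% interval -0.09 to -0.00). The upper end was -0.0003, nearer to 0 than the median log2 ratio used for scaling (-0.0167), so this call depends on the scaling. DDI2 and NGLY1, the enzymes that activate NFE2L1 by cleavage and by removal of sugar chains, had log2 ratios of 0.10 and 0.09, with intervals that included 0. VCP, the ATPase that pulls proteins out of the ER membrane, had 107 and 96.8 (-0.15, -0.19 to -0.11). NFE2L2, the oxidative stress factor NRF2, had 10.7 and 13.0, from 1155 and 1339 fragments (0.29, 0.18 to 0.40). NFE2L3 was under 1 FPKM in both libraries.

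Of the genes that supply ubiquitin, the stress-inducible UBB had 289 FPKM in shControl and 326 after knockdown (log2 ratio 0.17, 95% interval 0.13 to 0.22). RPS27A, which encodes ubiquitin fused to a ribosomal protein, had 222 and 220 FPKM (-0.02, -0.05 to 0.02). The activating enzyme UBA1 had 65.5 and 55.8 (-0.23, -0.28 to -0.18), and the second such enzyme UBA6 had 8.05 and 9.01 (0.16, 0.06 to 0.26). Of the 5 shuttle genes that carry ubiquitinated proteins to the proteasome, UBQLN4 lay below 0, with 12.4 and 9.87 FPKM (-0.32, -0.47 to -0.18), and the other 4 had intervals that included 0.

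The list of genes known to be induced by interferon with the immunoproteasome held 12 genes, of which 6 lay above 0 and 2 below, beside 19.7% and 24% of protein-coding genes. GBP1 had 6.48 FPKM in shControl and 9.38 after knockdown (log2 ratio 0.53, 95% interval 0.38 to 0.69), and IRF1 had 2.71 and 3.36 (0.30, 0.11 to 0.51). B2M, the light chain of MHC class I, had 223 and 260 (0.22, 0.19 to 0.24). TAP1, the peptide transporter gene, had 10.0 and 8.84 (-0.18, -0.32 to -0.04), and TAPBP had 48.2 and 42.4 (-0.19, -0.25 to -0.12). In the table TAP1 (chromosome 6, 32845209 to 32853978, minus strand) lies within the span of PSMB9, which is on the plus strand. The canonical exons of PSMB9 were overlapped over 0% by other genes, so an overlap could touch only further exons that the table's longer gene model holds, and its part was not tested.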

How the data were processed

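RNA of 1 shControl and 1 shFKBP9 library of SF-539 cells was measured by RNA-Seq. Per the methods and the submitters' processing notes, the authors filtered reads, aligned them to hg38 with HISAT2 2.0.5 and counted them per gene with featureCounts 1.5.0-p3. The annotation release and the handling of reads on several genes or places are not given in the sources used here, and the library kit is not described as stranded. The authors deposited FPKM per gene, with gene lengths and positions.

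Multiplied by gene length, 100% of the deposited FPKM were whole multiples (within 0.01) of 1 step, which gave the fragments. One fragment on 1 kilobase is 0.0552 FPKM in shControl and 0.0582 in shFKBP9. Log2 ratios used 0.1 added to FPKM and a minimum of 1 FPKM in either library, and calls were past 2-fold or a 95% counting interval away from 0. Differences between log2 ratios have normal intervals of counting error. Fragments were not molecules, so all intervals cover counting error only. With 1 library per condition, no p-value was computed.

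Members, roles, related genes and markers were chosen with earlier results of these data known. The named genes are FKBP9, every member, the related genes and markers, rows named after a member, and the genes that overlap a member, which were named after their values were seen. Overlap and canonical transcripts are from GENCODE release 44, and promoters are from RefSeq (GRCh38.p14). Values per length of the canonical transcript divide all fragments of a gene by that length. Alternatives were the value added (1 or 0.01), the minimum (none, or 1 FPKM in both libraries), the scaling (by the median ratio, or to TPM) and sums with pseudogenes, 7 in all. Leaving out overlapped genes or PSMC3IP, canonical lengths and TPM for PSMA3-AS1 were added after seeing the data. Recovery, intervals and the 2-fold call were tested on simulated data. Some related genes and markers are not reported here and stand in no count. Computations ran in Python 3.11.15 with scipy 1.17.1, pandas 2.3.3 and numpy 2.4.6, and plots in matplotlib 3.10.9.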

Additional observations from a re-analysis of the deposited data

Results flagged for a closer look

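The antisense RNA PSMA3-AS1 lies outside the comparison of proteasome genes and its counting interval lay above 0, but included 0 after rescaling to TPM (log2 ratio 0.15, 95% interval -0.01 to 0.31). Its level was 4.61 FPKM in shControl and 5.19 in shFKBP9, counted from 619 and 660 fragments (log2 ratio 0.17, 95% interval 0.01 to 0.33). PSMA3 itself was at 0.03. The canonical exons of PSMA3 were overlapped over 0% by other genes. Without strand, fragments of the gene and its antisense partner cannot be told apart where other exons overlap.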

How the results depend on the processing

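The numbers of proteasome genes past 2-fold stayed at 0 in both directions under the 7 alternatives named in the methods, and the medians of the roles stayed within the median counting interval of their genes. All 46 ratios lay far inside 2-fold, between -0.28 and 0.24, and the shifts of scaling were small, so neither outcome was a strict check. The immunoproteasome share of summed catalytic FPKM in shFKBP9 was 10.9% (95% counting interval 10.46 to 11.36, normal approximation), beside 11.36% in shControl. It was 11.44% with 1 added to FPKM, by construction since the addition weighs more on low genes, and stayed within that interval under the other 6 alternatives. Of these, the scalings and minimums cannot move a share within a library, and the pseudogene of PSMB7 held 0 fragments. The log2 ratio of FKBP9 was -3.16 with 1 added to FPKM, in place of -3.38, by construction of the larger addition. Median scaling centred the log2 ratios on the median gene (-0.0167), turned the sign of 4 ratios near 0 and added PSMD1 to the 16 genes with an interval away from 0. Rescaling to TPM (a shift of -0.0183) removed PSMD14, added PSMD11 and turned 3 signs, and no call changed direction. The range of levels among the 14 core genes was 139-fold with canonical transcript lengths and 10.5-fold without the genes overlapped over at least 50% of their canonical exons, in place of 284-fold. Canonical lengths also moved the levels of genes set beside each other, but not the ratios between libraries. For the 10.5-fold range, leaving out PSMA1, PSMA2 and PSMA6 is the cause by construction. With 1 library per condition no replicate could be left out. No paired analysis was possible because each condition has 1 library. Depth limits PSMA2, PSMA6, PSMD9, PSMC3IP and PSMB10, each with under 700 fragments together.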

Other observations

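The table lists 37 further rows named after proteasome genes, 32 pseudogenes and 5 antisense or neighbouring RNAs. Only 10 of the pseudogenes had a fragment, and together they held 141 fragments in shControl and 152 in shFKBP9, or 0.112% and 0.129% of those on the proteasome genes. PSMC1P1, a copy of the ATPase gene PSMC1, had most of them, with 101 and 100 fragments, beside 3136 and 2917 on PSMC1. For PSMA6 the pseudogenes held 11.6% as many fragments as the gene, and the log2 ratio of the sum was 0.02 (95% interval -0.23 to 0.27), whereas that of the gene alone was -0.07.

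PSMB8-AS1 was counted with 48 fragments in the control library and 56 in the knockdown, and PSMG3-AS1 with 151 and 140, both with intervals that included 0. Across the 46 genes of the name rule at 1 FPKM, log2 FPKM in the libraries correlated with a Pearson r of 0.998, which was also 0.998 without PSMC3IP, and across 10345 protein-coding genes with a fragment in both with 0.990. Genes are not independent replicates, and the points share the library and the gene length.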
